A study of Mus musculus with 8 samples.

Results

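The miRNA machinery described here consists of 10 genes, *Drosha*, *Dgcr8*, *Xpo5*, *Dicer1*, *Tarbp2*, *Prkra*, *Ago1*, *Ago2*, *Ago3* and *Ago4*, chosen by name from the 29092 genes of an mRNA count table. All 10 had 1 row each and passed the filter on low counts, as did 18866 genes in all. The table holds 4 libraries of enteric neural crest-derived cells (ENCDCs, GFP+) and 4 of the remaining bowel cells (gut cells, GFP-), sorted by flow cytometry from the bowel, stomach to anus, of mouse embryos at E13.5. The embryos are labelled wild-type and carried the *Ednrb-EGFP* transgene, which marks ENCDCs with EGFP. They came from heterozygous *Ednrb-EGFP* mice crossed to C57BL/6J, so both populations came from bowels of one genotype, and the labels name no treatment. Each library began with 750 pg of RNA, and the RNA of several samples was combined where 1 gave too little, so the p-values measure only the spread between libraries. In such bulk libraries, a different share of expressing cells and a different amount of RNA per cell cannot be told apart.

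miRNAs are short RNAs that lower the stability and translation of mRNAs carrying complementary sites. In the nucleus, the Microprocessor (the nuclease DROSHA with the RNA-binding protein DGCR8) cuts a hairpin out of the primary transcript, and Exportin-5 carries the hairpin to the cytoplasm together with RAN-GTP. There DICER, with its partners TRBP (*Tarbp2*) or PACT (*Prkra*), trims it to a duplex, from which an Argonaute protein keeps 1 strand as its guide. *Dicer1* deletion in the neural crest lineage is a standard way to deprive these cells of mature miRNAs.

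*Dgcr8* is shown with sequence because its own transcript contains miRNA hairpins. In the RefSeq annotation of GRCm38 (mm10), it holds the hairpins of miR-1306, in a coding exon, and of miR-3618, in a UTR exon, all on the minus strand as is *Dgcr8* itself. The 4 mature miRNAs are given with the seed (bases 2 to 8) in capitals.
miR-1306-5p, chr16:18284288-18284310: cACCACCUccccugcaaacgucc
miR-1306-3p, chr16:18284248-18284268: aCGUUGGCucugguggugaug
miR-3618-5p, chr16:18284602-18284623: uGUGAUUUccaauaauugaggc
miR-3618-3p, chr16:18284562-18284583: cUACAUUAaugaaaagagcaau
No 2 of these share a seed. Mature miRNAs were not measured in these libraries, so only the host transcript's count follows.

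The machinery's transcripts are themselves possible miRNA targets. Among the miRNAs that the study considered in ENCDCs, 4 were searched for in the members' 3′ UTRs, and their mature sequences (RefSeq) are shown because the matches below are read from them, again with the seed in capitals.
miR-9-5p: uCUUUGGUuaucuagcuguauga
miR-27b-3p: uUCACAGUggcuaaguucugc
miR-137-3p: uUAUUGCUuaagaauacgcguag
miR-488-3p: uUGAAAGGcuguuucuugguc
The letters searched for, each complementary to a seed, were ACCAAAG for miR-9-5p, ACTGTGA for miR-27b-3p, AGCAATA for miR-137-3p and CCTTTCA for miR-488-3p. They were searched on the transcript strand only, in 1 transcript per gene. For the first 3 of these miRNAs, some matches in the nucleases and in the neighboring Argonaute genes are shown, 1 per gene. Each is given in mm10 with the bases before it and the match in capitals, and further matches are counted below.
*Drosha*, miR-27b-3p, chr15:12935146-12935167, plus strand: ttgcctttctaagaACTGTGAc
*Dicer1*, miR-9-5p, chr12:104690612-104690633, minus strand: gtgttgccagagtcACCAAAGc
*Ago1*, miR-137-3p, chr4:126435367-126435388, minus strand: tcctctggtgtcatAGCAATAa
*Ago3*, miR-137-3p, chr4:126340550-126340571, minus strand: gacggtggttatatAGCAATAa
*Ago4*, miR-137-3p, chr4:126491475-126491496, minus strand: cctctcagaatcccAGCAATAg
The match in *Drosha* lay 38 bases after the stop codon, in a 3′ UTR of 169 bases. The miR-27b-3p match occurred 3 times in *Ago2* and 2 times in *Dicer1*, and that of miR-488-3p occurred 6 times in *Ago3* and 1 time each in *Ago1* and *Ago2*. *Dicer1* held 1 match to miR-9-5p, and *Ago3* held 3 to miR-137-3p, against 1 each in *Ago1* and *Ago4*. *Dgcr8*, *Xpo5*, *Tarbp2* and *Prkra* held no match to these 4 seeds. The genes with matches, other than *Drosha*, have long 3′ UTRs, of 3682 (*Ago4*), 3851 (*Dicer1*), 4491 (*Ago1*), 11064 (*Ago2*) and 12742 bases (*Ago3*), against a median of 963 bases over 15073 genes. The share of all 3′ UTRs with a match was 12.3% for miR-9-5p, 15.9% for miR-27b-3p, 9.08% for miR-137-3p and 13.53% for miR-488-3p. Among the 1394 3′ UTRs of 3500 bases or more, it was 36.5%, 46.0%, 29.3% and 42.5%. A match describes the letters only.

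The 8 libraries had been brought to nearly one depth, with 13250893 to 13267220 counts each. Summed crest markers took 0.521% to 0.623% of the counts in ENCDCs and 0.0213% to 0.0258% in gut cells, and all 7 were called higher in ENCDCs. *Ednrb*, the gene whose transgene marked the sorted cells, is among them, so its own call is no independent check of the sort. Its normalized count had the highest mean of the 7 in both populations, 38742 in ENCDCs and 2514 in gut cells. It therefore made up a large part of both sums. Leukocyte and erythroid markers, 5 each, were all called lower in ENCDCs. No marker was at 0 in all libraries of a population. ENCDC replicate 3 stood apart from the other ENCDC libraries, with 0.148% of its counts from 6 mesenchymal markers and 0.0731% from 6 smooth muscle markers, against 0.0206% to 0.0602% and 0.0107% to 0.0244% in the other 3. In gut cells these markers took 1.09% to 1.45% and 0.360% to 0.449%.

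Most machinery transcripts differed little in mean level between ENCDCs and gut cells, though no test of equal levels was run. Of the 10 genes, only *Ago1* was called, higher in ENCDCs, none was called lower, and the median log2 fold change was 0.24. By the same test, 37.9% of all tested genes were called, 17.0% higher and 20.9% lower in ENCDCs, and 44.3% of the 10916 genes whose mean normalized count reached 100 (23.7% higher). The median size of the log2 fold change, whatever its sign, was 0.24 over the 10 genes, 0.60 over all tested genes and 0.38 over those reaching a mean of 100. The 4 ENCDC libraries were all above the 4 gut libraries for *Drosha* and *Ago1*, and the populations overlapped for the other 8 genes, while 38.2% of all tested genes, and 44.5% of those reaching a mean of 100, had no overlap. Calls are from edgeR's quasi-likelihood test, with TMM-normalized counts and adjusted p (Benjamini-Hochberg) under 0.05 over all tested genes.

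**Figure D1:**
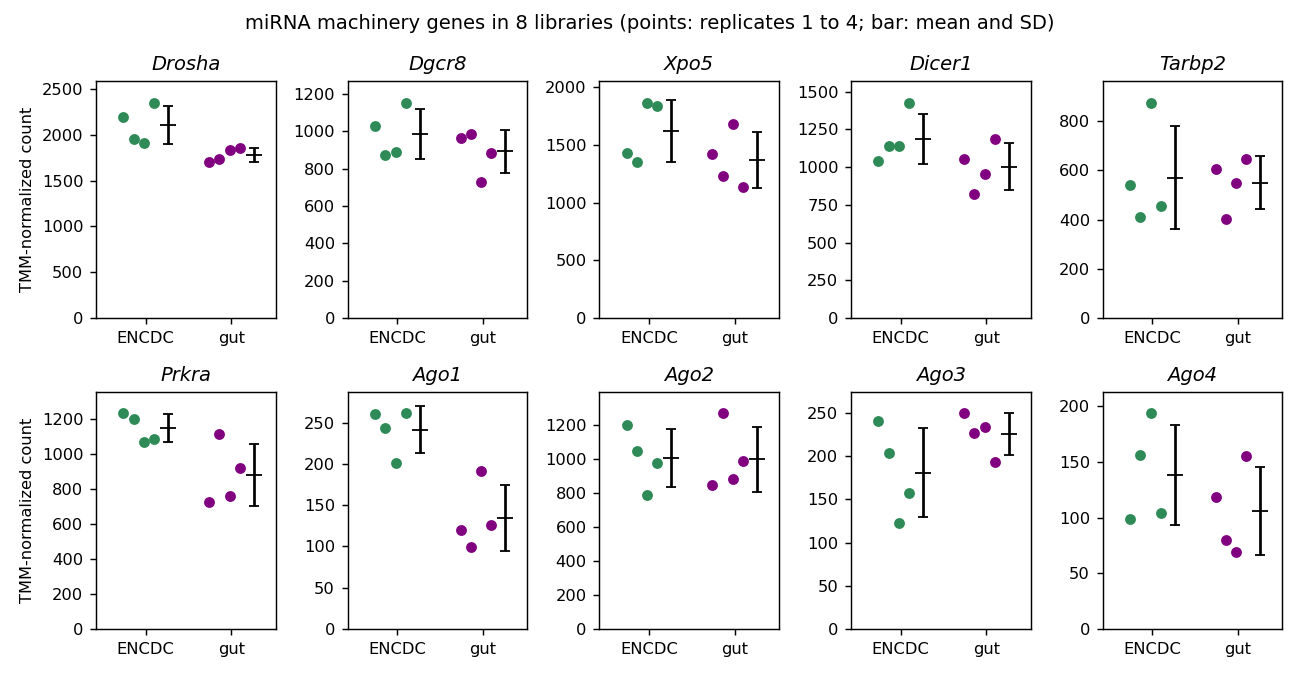
TMM-normalized counts of the 10 machinery genes (y axis, each panel starting at 0) in the 4 ENCDC and 4 gut libraries. Points are replicates 1 to 4 from left to right, and the bar beside them is the mean with its SD. The ENCDC points lie above all gut points for *Drosha* (1914 or more against 1856 or less) and *Ago1* (201 or more against 191 or less), and the populations overlap in the other 8 panels.

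In the Microprocessor, the nuclease *Drosha* (chr15:12824815-12935291, plus strand) had normalized counts of 2192, 1952, 1914 and 2349 in ENCDC replicates 1 to 4 and 1699, 1739, 1833 and 1856 in gut replicates 1 to 4. Every ENCDC library was above every gut library, by a gap that was small beside the level. The means were 2102 ± 206 and 1782 ± 74.5 (n = 4 each, with the SD, as for all means below), and the log2 fold change was 0.24 (standard error 0.096, 95% interval 0.027 to 0.45). With an adjusted p of 0.0730 from edgeR, the difference was not called, though its unadjusted edgeR p was 0.0307. *Dgcr8* (chr16:18253948-18289246, minus strand), which binds the hairpin and positions the cut, had 1030, 874, 888 and 1154 in ENCDCs and 966, 988, 730 and 886 in gut cells. The populations overlapped, with means of 986 ± 132 and 892 ± 117 and a log2 fold change of 0.14 (95% interval -0.16 to 0.45, adjusted p = 0.450 from edgeR). Exons of *Dgcr8* overlap those of *Trmt2a* on the opposite strand over 825 bases, or 10.7% of the exonic length of *Dgcr8*. Since the libraries do not keep strand, reads from the overlap cannot be assigned to one of these genes, and *Trmt2a* had a mean count of 1460, above that of *Dgcr8*.

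The log2 ratio of *Dgcr8* to *Drosha*, both as normalized counts per kilobase of exons, did not depend on the scaling of the libraries. It was -1.47, -1.53, -1.48 and -1.40 in ENCDCs and -1.19, -1.19, -1.70 and -1.44 in gut cells. The ENCDC libraries lay close together inside the range of the gut libraries. The means differed by -0.090, ENCDCs minus gut cells (exact two-sided permutation test, p = 0.457, adjusted p = 0.457 over the 3 ratios tested, smallest possible p 0.0286).

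*Xpo5* (chr17:46202782-46243598, plus strand), encoding the exportin of miRNA hairpins, had normalized counts of 1428, 1354, 1865 and 1835 in the ENCDC libraries and 1419, 1234, 1683 and 1138 in the gut libraries. Replicates 3 and 4 of the ENCDCs were the highest libraries, but replicates 1 and 2 fell within the gut range. The means were 1620 ± 267 and 1368 ± 240, a log2 fold change of 0.24 (standard error 0.15, 95% interval -0.089 to 0.58, adjusted p = 0.239 from edgeR).

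*Dicer1* (chr12:104687742-104751952, minus strand), the cytoplasmic nuclease that makes the mature duplex, had normalized counts of 1043, 1138, 1138 and 1427 in the ENCDC libraries and 1054, 819, 952 and 1185 in gut cells. The highest value was in ENCDC replicate 4 and the lowest in gut replicate 2, and the remaining libraries were interleaved. The means were 1186 ± 166 and 1003 ± 155, a log2 fold change of 0.24 (standard error 0.14, 95% interval -0.069 to 0.55, adjusted p = 0.209 from edgeR). A 2-fold difference lay outside this 95% interval, and also outside those of *Drosha*, *Dgcr8*, *Xpo5*, *Tarbp2*, *Prkra*, *Ago2* and *Ago3*.

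Of the partners of DICER, *Prkra* (chr2:76629898-76648015, minus strand) had normalized counts of 1233, 1200, 1070 and 1088 in the ENCDC libraries and 727, 1115, 762 and 922 in gut cells. Gut replicate 2 lay among the ENCDC libraries, and the other 3 gut libraries lay below them all. The means were 1148 ± 80.7 and 881 ± 177, a log2 fold change of 0.38 (standard error 0.14, 95% interval 0.065 to 0.70, adjusted p = 0.0572 from edgeR). *Prkra* thus missed the threshold narrowly. It passed with voom and limma (adjusted p = 0.0405) and, from edgeR, without gut replicate 2 (adjusted p = 0.0136) or ENCDC replicate 3 (adjusted p = 0.0445). It was not called in any other setting tried. Among these were DESeq2 (adjusted p = 0.0585), edgeR with a replicate block (adjusted p = 0.0631) and edgeR without gut replicate 1 (adjusted p = 0.155). *Tarbp2* (chr15:102518192-102523676, plus strand) was the least even across ENCDCs, with 540, 410, 876 and 458 against 605, 404, 548 and 648 in gut cells. The value of 876 was from ENCDC replicate 3, and the other 3 ENCDC libraries fell within the gut range. Its means were 571 ± 210 and 551 ± 106 (log2 fold change 0.051, 95% interval -0.48 to 0.58, adjusted p = 0.891 from edgeR).

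Per kilobase, *Prkra* exceeded *Tarbp2* in all 8 libraries. The log2 ratio of *Tarbp2* to *Prkra* was -2.36, -2.72, -1.46 and -2.41 in ENCDCs and -1.43, -2.63, -1.64 and -1.67 in gut cells. Replicate 3 of the ENCDCs and replicate 2 of the gut cells were each far from the other 3 libraries of their population. The means were -2.24 ± 0.54 and -1.84 ± 0.54 (difference -0.39, exact two-sided permutation test p = 0.4, adjusted p = 0.457).

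**Figure D2:**
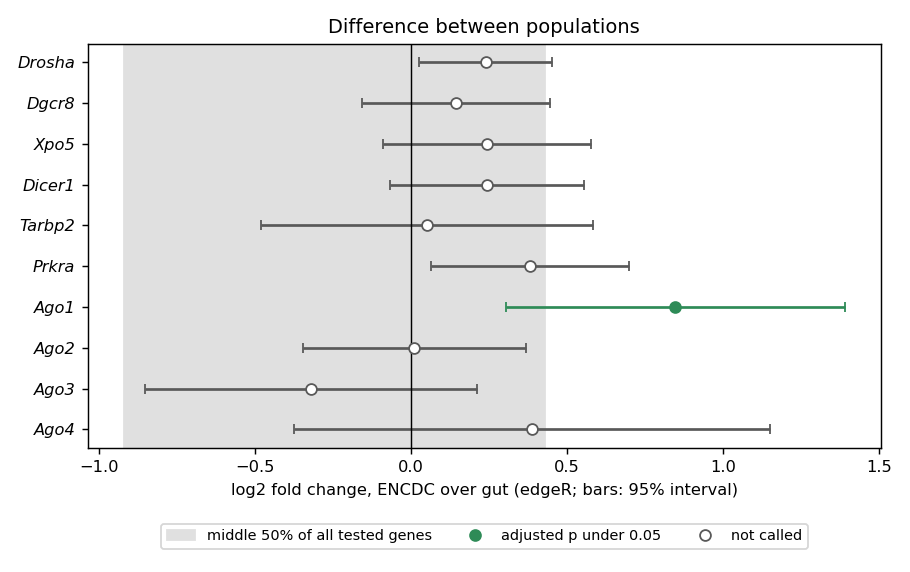
Log2 fold change of each machinery gene, ENCDC over gut (x axis), with its 95% interval from edgeR, and the middle 50% of all tested genes shaded (-0.92 to 0.43). *Ago1*, the filled point at 0.85, lies outside the shading, while the other 9 points, none of them called, lie between -0.32 and 0.39.

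The 4 Argonautes bind the guide strand. AGO2 is the one known for cutting a target with full complementarity, while all 4 recruit the factors that repress targets. *Ago1*, *Ago3* and *Ago4* are neighbors on the minus strand of chromosome 4, with 5455 bases between *Ago3* (chr4:126331704-126429556) and *Ago1* (chr4:126435012-126468583) and 20957 between *Ago1* and *Ago4* (chr4:126489541-126533472). *Ago2* is on chromosome 15 (chr15:73095844-73184935, minus strand).

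*Ago1* was higher in ENCDCs, with normalized counts of 261, 243, 201 and 261 against 120, 99.5, 191 and 126 in gut cells. The populations did not overlap, but gut replicate 3 (191) was close to ENCDC replicate 3 (201). The means were 242 ± 28.5 and 134 ± 39.8, a log2 fold change of 0.85 (standard error 0.25, 95% interval 0.30 to 1.39, adjusted p = 0.0194 from edgeR). The call was lost when gut replicate 1 was left out (log2 fold change 0.80, edgeR adjusted p = 0.0529) or gut replicate 2 (0.69, edgeR adjusted p = 0.0608).

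*Ago2* had close means in both populations, with 1203, 1050, 790 and 977 in ENCDCs and 850, 1269, 882 and 990 in gut cells. Its lowest library was ENCDC replicate 3 and its highest gut replicate 2. The means were 1005 ± 171 and 998 ± 191, a log2 fold change of 0.010 (95% interval -0.35 to 0.37, adjusted p = 0.969 from edgeR), whose sign turned with other scalings.

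*Ago3* had 241, 203, 123 and 157 in ENCDCs and 250, 227, 234 and 193 in gut cells. With TMM factors it was the only member with a lower mean in ENCDCs (181 ± 51.8 against 226 ± 23.9), and the populations overlapped (log2 fold change -0.32, 95% interval -0.85 to 0.21, adjusted p = 0.335 from edgeR). *Ago4*, the member with the fewest counts, had 98.5, 157, 194 and 104 in ENCDCs and 119, 79.8, 69.1 and 155 in gut cells. Its means of 138 ± 45.3 and 106 ± 39.4 (log2 fold change 0.39, adjusted p = 0.419 from edgeR) came with a wide 95% interval, -0.37 to 1.15, which includes a 2-fold higher level in ENCDCs. The 3 neighbors on chromosome 4 therefore did not share a direction in their means, and the difference between their fold changes was not tested.

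Among the 4 Argonautes, *Ago2* made up the most transcript in every library. As a share of the summed level per kilobase of the 4 genes, it was 58.5%, 53.6%, 48.4% and 55.1% in ENCDCs and 56.3%, 70.8%, 56.9% and 58.8% in gut cells. The populations overlapped, and gut replicate 2 was far above the rest. The mean shares were 53.9% ± 4.20 and 60.7% ± 6.79, a difference of -6.78 percentage points (exact two-sided permutation test, p = 0.114, adjusted p = 0.343). The difference was -3.42 points without gut replicate 2 and -3.79 points with counts not divided by length. *Ago1* held 22.5% ± 1.99 of the sum in ENCDCs and 14.4% ± 4.96 in gut cells, *Ago4* 15.4% ± 6.31 and 13.1% ± 4.90, and *Ago3* 8.14% ± 1.54 and 11.8% ± 1.95, given as a description without a test.

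**Figure D3:**
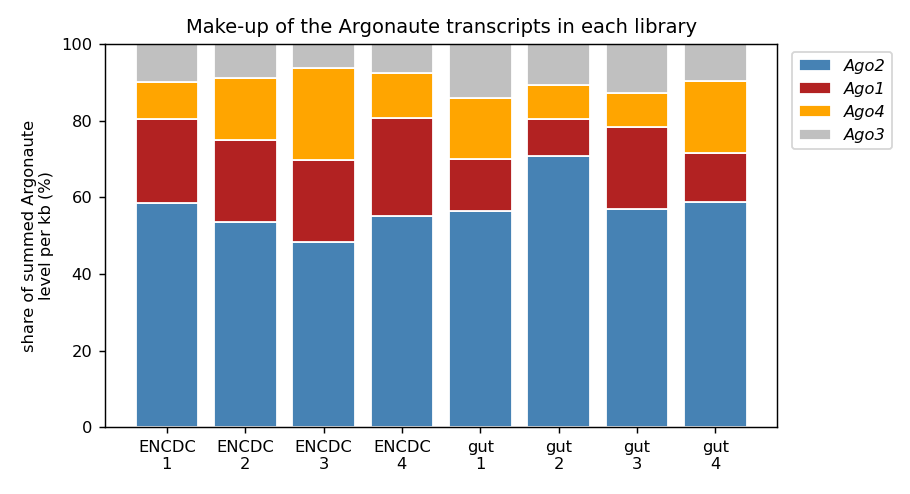
Share (%) of each Argonaute gene in the summed normalized count per kilobase of the 4 genes (y axis), for each library (x axis). *Ago2* is the largest segment in all 8 bars, from 48.4% in ENCDC replicate 3 to 70.8% in gut replicate 2.

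Set against each other per kilobase of exons, the 10 genes spanned a wide range, in an order that depends on this division by length. In normalized counts not divided by length, *Drosha* had the highest mean in both populations (2102 in ENCDCs, 1782 in gut cells). *Dicer1*, with 16.75 kb of exons, was then above *Prkra*, with 2.03 kb (1186 against 1148 in ENCDCs, 1003 against 881 in gut cells). In ENCDCs the mean levels, in normalized counts per kilobase, were 566 ± 39.8 for *Prkra*, 354 ± 34.7 for *Drosha*, 236 ± 38.9 for *Xpo5*, 128 ± 17.2 for *Dgcr8*, 125 ± 46.2 for *Tarbp2*, 71.6 ± 12.2 for *Ago2* and 70.8 ± 9.93 for *Dicer1*. The lowest were *Ago1* at 29.7 ± 3.51, *Ago4* at 19.9 ± 6.52 and *Ago3* at 10.9 ± 3.13. *Prkra* was at the 92.5th percentile of tested genes in ENCDCs and *Ago3* at the 35.6th. The order in gut cells was the same except that *Tarbp2* (121 ± 23.4) was ahead of *Dgcr8* (116 ± 15.2). In both populations, neighbors whose libraries overlapped were *Dgcr8* and *Tarbp2*, *Ago2* and *Dicer1*, *Ago1* and *Ago4*, and *Ago4* and *Ago3*. With the longest transcript as the length, *Dicer1* (120 in ENCDCs, 102 in gut cells) stood above *Ago2* (72.8 and 72.3), and *Dgcr8* (228 and 207) stood above *Tarbp2* (209 and 202) in both populations, so the order of these neighbors depends on the length used.

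**Figure D4:**
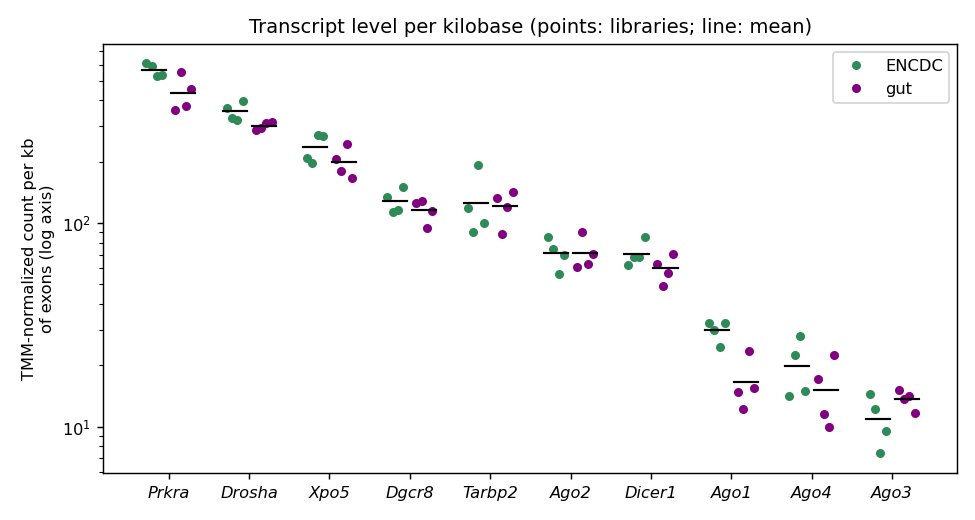
Normalized count per kilobase of exons (y axis, log scale) of the 10 machinery genes, ordered by their ENCDC mean, with a point for each library and a line at the mean. Levels run from 566 for *Prkra* to 10.9 for *Ago3* in ENCDCs, and the 2 populations follow nearly the same order.

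ENCDC replicate 3 gave the lowest ENCDC value for *Drosha*, *Prkra*, *Ago1*, *Ago2* and *Ago3* and the highest for *Xpo5*, *Tarbp2* and *Ago4*. Without this library, *Drosha* (adjusted p = 0.0327) and *Prkra* (adjusted p = 0.0445, both from edgeR) were called higher in ENCDCs beside *Ago1*, making 3 of 10. The rise was not confined to the machinery. Among the genes that work beside it, described below, calls higher in ENCDCs went from 27 to 32 without this library. The share of all tested genes called without this library is not given here. Neither rise can therefore be read as particular to these genes. The part of its mesenchymal and smooth muscle transcripts in these values was not tested.

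The genes that work beside the machinery were described from 8 lists. Of 95 genes listed, 93 were in the table and 91 were tested, of which 27 were higher and 6 lower in ENCDCs. The median log2 fold change of the tested list genes was 0.11. It was -0.041 over all tested genes and 0.062 over those reaching a mean of 100. Of the tested list genes, 29.7% were higher and 6.59% lower, or 36.3% in either direction. The shares were 17.0%, 20.9% and 37.9% over all tested genes, and 23.7%, 20.6% and 44.3% over those reaching a mean of 100. Whether any list differed from these shares was not tested. The calls higher in ENCDCs were mostly in 3 lists, the nuclear cofactors, the RAN cycle and the loading chaperones, and these calls numbered 18. Summed proliferation markers also differed, with 0.277% to 0.298% of the counts in ENCDCs and 0.214% to 0.259% in gut cells, and 3 of 8 of them were called higher. Their part in the following differences was not tested.

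Of 14 nuclear cofactors of primary miRNA processing, 8 were higher in ENCDCs, none was lower, and the median log2 fold change was 0.36. *Hnrnpa2b1*, which binds marked primary transcripts, averaged 27881 ± 3931 in ENCDCs and 20843 ± 977 in gut cells (log2 fold change 0.42, adjusted p = 0.00543 from edgeR). *Hnrnpa1*, which remodels the hairpin of some primary miRNAs, was higher by 0.73 (adjusted p = 7.09e-05 from edgeR), and *Ncbp1*, of the nuclear cap-binding complex, by 0.62 (adjusted p = 4.58e-04 from edgeR). The splicing factor *Srsf3*, which binds beside many human hairpins, was higher by 0.29 (adjusted p = 0.0123 from edgeR).

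Of 6 genes of the RAN cycle and related exportins, 4 were higher, with a median of 0.61. *Ran*, the GTPase that loads Exportin-5, was higher by 0.63 on the log2 scale (adjusted p = 4.53e-04 from edgeR), and its activating protein *Rangap1* by 1.15 (adjusted p = 1.72e-06 from edgeR). *Ranbp1* was higher by 0.65 and the exchange factor *Rcc1* by 0.59. The tRNA exportin *Xpot* (-0.29) and the protein exportin *Xpo1* (-0.016) were not called, and neither was *Xpo5*.

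Of 9 chaperones that help load the duplex into Argonaute, 6 were higher, none was lower, and the median was 0.46. *Hsp90ab1* averaged 35519 ± 763 in ENCDCs and 25739 ± 924 in gut cells (log2 fold change 0.46, adjusted p = 7.09e-05 from edgeR), and *Hsp90aa1* was higher by 0.78 (adjusted p = 1.55e-04 from edgeR). The co-chaperone *Stip1* was higher by 0.64 and *Hspa8* by 0.32. These proteins also serve many clients outside the miRNA pathway.

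Downstream of Argonaute, 2 of 16 GW182 proteins and other effectors were higher and 2 lower, with a median of 0.053. For this list and those below, the shares over all tested genes were 17.0% higher and 20.9% lower. *Tnrc6a*, *Tnrc6b* and *Tnrc6c*, the GW182 scaffolds that bind Argonaute, were not called (0.22, -0.34 and -0.30), and are named although the rule does not pick them. *Tnrc6b* had an unadjusted p of 0.0461 and an adjusted p of 0.101 from edgeR. For *Tnrc6c* (adjusted p = 0.127 from edgeR), every gut library was above every ENCDC library. The populations did not overlap for 38.2% of all tested genes. *Limd1*, with *Pabpc1* the most abundant of this list, was not called (0.12, adjusted p = 0.453 from edgeR). The poly(A)-binding protein *Pabpc1* was higher by 0.29 (adjusted p = 0.00868 from edgeR) and the cap-binding *Eif4e2* by 0.28 (adjusted p = 0.0262 from edgeR). The *Eif4e2* call was lost without ENCDC replicate 1, 2 or 4 or gut replicate 1 or 3 (adjusted p = 0.0508 to 0.0709 from edgeR). *Mov10*, an RNA helicase that associates with Argonaute, was lower in ENCDCs, with 695 ± 219 normalized counts against 1884 ± 268 (log2 fold change -1.44, adjusted p = 1.70e-04 from edgeR), and so was the LIM protein *Wtip* (-0.74, adjusted p = 0.00934 from edgeR). *Mov10* in ENCDC replicate 3 was 1020, nearer to the gut libraries than the other 3 ENCDC libraries were.

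Of 16 deadenylation genes, 3 were higher and 1 lower, with a median of 0.070. The deadenylase *Cnot6* was higher by 0.47 (adjusted p = 0.00961) and *Cnot9* by 0.46 (adjusted p = 0.0464), while *Btg2*, an antiproliferative gene that binds the CCR4-NOT complex, was lower (-0.84, adjusted p = 0.00251, all from edgeR). The *Cnot9* call was lost without any one library other than ENCDC replicate 3 (adjusted p = 0.0792 to 0.131 from edgeR). The scaffold *Cnot1* was not called (-0.048). None of the 9 decapping and decay genes was called by edgeR, voom and limma or DESeq2, 0 had an unadjusted p under 0.05 by any of these tools, and the median was -0.075. The most abundant of them were *Xrn2* (0.060, adjusted p = 0.645) and *Edc4* (-0.10, adjusted p = 0.549, both from edgeR).

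Of 16 genes that modify or turn over miRNAs, 4 were higher and 1 lower. *Lin28b*, which blocks maturation of let-7 precursors, averaged 542 ± 111 in ENCDCs and 174 ± 94.2 in gut cells (log2 fold change 1.63, adjusted p = 0.0111 from edgeR). *Trim71*, an RNA-binding ubiquitin ligase and let-7 target, had 130 ± 23.9 and 27.5 ± 12.8 (log2 fold change 2.24, adjusted p = 0.00105 from edgeR), and the uridyltransferase *Tut4* was lower by 0.36 in ENCDCs (adjusted p = 0.0334 from edgeR). The *Tut4* call was lost without ENCDC replicate 2 or 4 or gut replicate 1 or 4 (adjusted p = 0.0676 to 0.0938 from edgeR). *Dis3l2*, which degrades uridylated precursors, was higher by 0.57, and *Tsn*, a subunit of the nuclease C3PO, by 0.40, a call lost without gut replicate 1 or 3 (adjusted p = 0.0510 and 0.0504 from edgeR). *Tsnax*, with *Tsn* the most abundant of this list, was not called (-0.047, adjusted p = 0.730 from edgeR).

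The PIWI proteins are relatives of the Argonautes that act with other small RNAs, mainly in germ cells. Of 9 PIWI pathway genes, 5 were tested. *Piwil2* and *Tdrd9*, named after their values were seen, are among the 6 list genes called lower, but they passed the filter on low counts only through gut cells and so could only come out lower in ENCDCs. *Piwil2* had 69, 6, 8 and 21 counts in gut cells and *Tdrd9* 28, 18, 50 and 23, and both had 0 in every ENCDC library. With 3 counts over the 4 ENCDC libraries as an assumed floor, the gut level was 33.9-fold that floor for *Piwil2* and 39.0-fold for *Tdrd9*. These values describe the counts and are no test. Gut replicate 1 gave 69 of the 104 *Piwil2* counts, and without it the value for *Piwil2* was 15.4-fold.

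**Figure D5:**
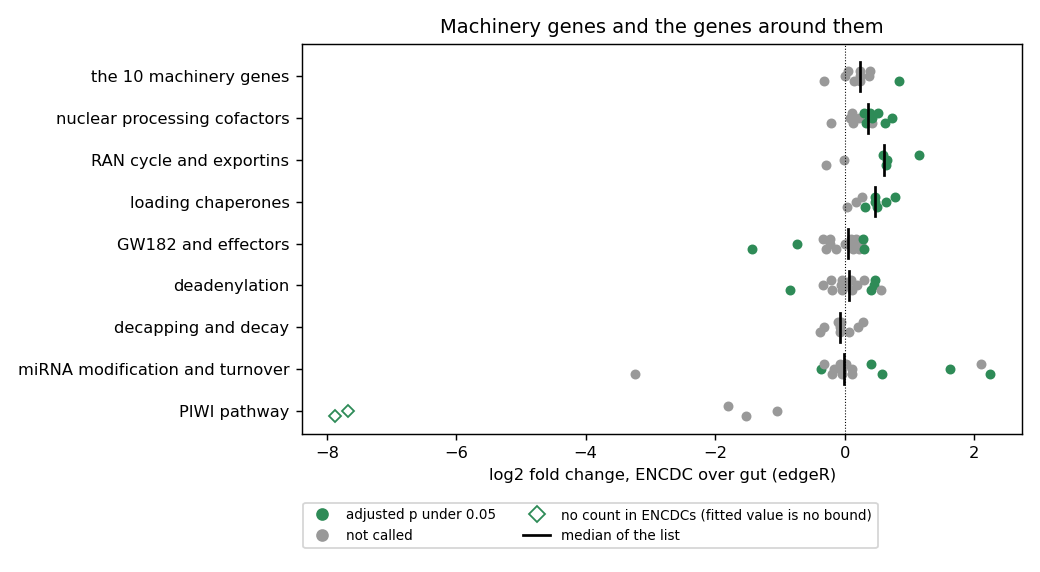
Log2 fold change, ENCDC over gut (x axis), of the 10 machinery genes and of the tested genes of 8 lists around them (rows), with the median of each as a line except for the PIWI pathway. Colored points are called, and open diamonds mark *Piwil2* and *Tdrd9*, whose fitted values are no bounds. The medians of the nuclear cofactors (0.36), RAN cycle (0.61) and loading chaperones (0.46) lie right of that of the machinery (0.24).

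Over the 8 libraries, the genes with patterns most like that of *Dicer1* were *Atp9a*, *Trim62* and *Ppp1r37*, with root mean square differences of 0.079, 0.087 and 0.087 between log2 normalized counts centered on each gene's mean. For *Ago2* they were *Crcp* (0.057), *Med7* (0.087) and *Fcf1* (0.087). The median difference over the 10906 genes compared was 0.358 for *Dicer1* and 0.378 for *Ago2*. Picking the smallest of so many differences gives small values by selection, so these genes are a description without a test.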

How the data were processed

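Alignment by the authors was to mm10, with STAR 2.4.2a. They used PORT for normalization, and the deposited value of each gene is its minimum normalized count, in whole reads. The cDNA and library kits do not keep strand. GEO's design field mentions small RNAs and CPM, but the values are whole mRNA read counts and were treated as counts. Genes whose counts in 1 population averaged 3 or more, with 3 of its 4 libraries above 0, were compared in R 4.3.3 with edgeR 4.0.16 (TMM factors, quasi-likelihood F test, Benjamini-Hochberg over 18866 genes), with limma 3.58.1 (voom) and DESeq2 1.42.0 as alternatives. Other alternatives were RLE or no factors, other filters, a replicate block, other gene lengths (the longest transcript for single levels was chosen after seeing the data) and leaving out each library. The test was run on simulated counts first. Of 29092 gene IDs, 29035 matched GENCODE M21, which gave positions, exon lengths and 3′ UTRs. Ratios were tested with exact permutation tests (scipy 1.17.1). The members and lists were chosen with earlier results of these data known. Named were all members, and in each list the 2 most abundant tested genes and, among called genes averaging 100 or more in the higher population, the 2 with the largest and 2 with the smallest fold change in that direction; other list genes were chosen after their values were seen. One gene was left out of the lists and is not reported here. Protein sequences and miR-124 were not analysed here, nor was smRNA-seq.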

Additional observations from a re-analysis of the deposited data

Results flagged for a closer look

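In 84 groups of 4 libraries, 2 had 1 library far from the other 3 (Dixon's test at the 95% level), and chance alone flags about 1 group in 20. *Mov10* had a normalized count of 1020 in ENCDC replicate 3, against 548 to 626 in the other ENCDC libraries. This was also the library with the most mesenchymal transcripts, and their part in the value was not tested. The *Ago2* share of the 4 Argonautes was 70.8% in gut replicate 2, against 56.3% to 58.8% in the other gut libraries.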

How the results depend on the processing

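The number of machinery genes called higher, 1, was 2 with voom and limma (*Prkra* and *Ago1*), 0 with a replicate block and 0 to 3 when 1 library was left out, and none was called lower under any alternative. It was 0 without gut replicate 1, 3 without ENCDC replicate 3, and 1 (*Prkra* in place of *Ago1*) without gut replicate 2. With the block, *Ago1* had a log2 fold change of 0.88 and an adjusted p of 0.0504. The labels do not say whether same-numbered libraries share bowels. Their deviations from the group means correlated by only -0.015 to 0.023, not every library correlated best with its own number, and the numbers were not used as pairs. The counts of list genes (27 higher, 6 lower) stayed within 1.5 times, and no ratio passed its test with another gene length. With 1 library left out or the block, the smallest possible p of the ratio tests is 0.0571 or 0.125, so those could not pass. With 1 library left out, the log2 ratio differences were -0.20 to -0.026 (*Dgcr8* to *Drosha*) and -0.65 to -0.23 (*Tarbp2* to *Prkra*). With the block, the calls of *Tut4* (adjusted p = 0.0747) and *Cnot9* (adjusted p = 0.0644) were also lost. *Cnot9* was not called with voom and limma, RLE or no factors either, nor *Eif4e2* with no factors or no filter on low counts. Small fold changes changed sign. That of *Ago2* was -0.029 with DESeq2 and with RLE, -0.039 with no factors, -0.0053 with another filter and -0.085 to 0.12 with 1 library left out. With 1 library left out, *Tarbp2* ran from -0.23 to 0.18, *Cnot1* from -0.23 to 0.034 and *Tsnax* from -0.095 to 0.0031. The causes were not tested. With 4 libraries of each population, the log2 fold changes of *Ago4*, *Ago1*, *Ago3* and *Tarbp2* had the largest standard errors of the 10 genes (0.35, 0.25, 0.24 and 0.24).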
